A study of Homo sapiens with 4 samples.

Results

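This account describes 56 genes that encode ribosome biogenesis factors of the nucleolus, out of 26475 gene symbols counted in RNA from MDA-MB-468 mammospheres. The members are a named list of genes whose rule uses no measured value, although the list was chosen with earlier results of these data known. They were placed in 6 roles by what each protein is known to do. All 56 were found in the tables, and all 56 were among the 15204 genes that had at least 10 counts in at least 1 library. MDA-MB-468 is an established basal-like triple-negative breast cancer (TNBC) line, and a mammosphere is a floating colony grown from single cells without attachment. The 4 groups, of 1 library each, were CTL (a control guide, wild-type genotype, no drug), CTL+dox (the control guide with doxycycline), gRNA2 (a guide against TCOF1, wild-type genotype, no drug) and gRNA2+dox (that guide with doxycycline, labelled as the TCOF1 knockout). By the study's methods, all groups were spheres grown for a week from sorted cells with Cas9 and a doxycycline-inducible guide, and several plates were seeded for each group. No group had a replicate, so every interval printed here covers counting error only, and differences between cultures could not be measured.

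A ribosome is built in the nucleolus, where RNA polymerase I copies the ribosomal DNA into a long precursor RNA. Small nucleolar ribonucleoproteins (snoRNPs) modify this precursor, the small subunit processome folds and cleaves its leading portion into the 40S subunit, and a separate set of factors assembles the 60S subunit around the rest. TCOF1, also called treacle, is a nucleolar phosphoprotein known for supporting ribosomal DNA transcription and rRNA modification, and growing tumour cells are known for high levels of the whole pathway. In TNBC spheroids and cells, the study saw no fall in the rRNAs it measured and no loss of rRNA integrity with the knockout. It proposes that the control of ribosomal DNA transcription by TCOF1 depends on context.

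Counts on genes ranged from 19960644 to 26322847 per library. TCOF1 itself had 1019 counts without and 754 with doxycycline in CTL cells, and 1318 and 437 in gRNA2 cells, or 50.4, 33.5, 50.1 and 20.0 in CPM (counts scaled to a common library total with TMM factors). The knockout library was the lowest, and CTL+dox was also below CTL, by a log2 ratio of -0.59. Epithelial and basal markers were abundant in every library (EPCAM had at least 8907 counts and KRT5 at least 78551). Of the receptors low in TNBC, ESR1 had at most 13 counts and PGR at most 7, while ERBB2 had 270 to 387. Of leukocyte markers PTPRC had at most 2 counts and CD3E at most 3, while CD14 had 233 to 280 and CD68 1905 to 3036. The fibroblast marker COL1A1 had 358 to 543. The gRNA2+dox library had the largest share of reads outside genes, 12.5% against 10.6% to 11.3%, and the smallest share mapping to several places, 3.39% against 4.02% to 4.85%, and the part of either in the values below was not tested.

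The promoters of 4 members are shown. UTP6 was the 1 member called higher in both knockout comparisons by the rule given below (1.79%, background 2.06% of tested genes). NOP14 was the 1 member called lower against gRNA2 (1.79%, background 6.31%), so both shares are below the background. FBL and NOP10 carry the letter patterns that are described after the sequences. Each run is the 250 bases before the annotated start, from RefSeq on GRCh38.p14, written along the gene from 5′ to 3′. Capitals mark CCGGAAG, the core read by ETS family factors (here on either strand, so CTTCCGG in reverse), and CACGTG, the E-box read by MYC and related factors. The regions, all on the reverse strand, are chr17:31901709-31901958 for UTP6, chr4:2963407-2963656 for NOP14, chr19:39846380-39846629 for FBL and chr15:34343137-34343386 for NOP10.

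UTP6: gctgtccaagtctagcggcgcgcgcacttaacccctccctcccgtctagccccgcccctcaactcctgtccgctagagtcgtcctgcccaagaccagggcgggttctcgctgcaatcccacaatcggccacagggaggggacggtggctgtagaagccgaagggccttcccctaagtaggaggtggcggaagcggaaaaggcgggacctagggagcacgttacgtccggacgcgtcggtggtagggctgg
NOP14: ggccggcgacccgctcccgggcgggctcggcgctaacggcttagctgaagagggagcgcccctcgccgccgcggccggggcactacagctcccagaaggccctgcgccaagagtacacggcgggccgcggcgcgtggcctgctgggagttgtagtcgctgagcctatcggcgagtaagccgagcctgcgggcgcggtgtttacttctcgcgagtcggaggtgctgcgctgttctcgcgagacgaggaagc
FBL: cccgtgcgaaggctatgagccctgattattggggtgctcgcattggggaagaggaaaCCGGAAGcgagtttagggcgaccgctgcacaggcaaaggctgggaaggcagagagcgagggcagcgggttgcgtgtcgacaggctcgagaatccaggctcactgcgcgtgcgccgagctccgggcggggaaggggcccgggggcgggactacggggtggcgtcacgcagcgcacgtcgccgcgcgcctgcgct
NOP10: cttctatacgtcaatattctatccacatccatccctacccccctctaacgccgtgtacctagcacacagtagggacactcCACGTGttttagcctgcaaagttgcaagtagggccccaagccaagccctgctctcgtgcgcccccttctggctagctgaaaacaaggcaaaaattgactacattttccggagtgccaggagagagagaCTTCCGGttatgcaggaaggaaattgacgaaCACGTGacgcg

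The UTP6 and NOP14 runs hold neither pattern, FBL holds 1 ETS-type match 193 bases before its start, and NOP10 holds 1 ETS-type match and 2 E-boxes, of which 1 lies 11 bases before the start. Promoter sequence was matched for 48 of the 56 members. CCGGAAG on either strand was present in 18 of these 48 (37.5%), against 17.2% of the 11133 tested genes with a sequence and 10.2% of all 27305 genes with one. CACGTG was present in 8 (16.7%), against 10.8% of the tested genes and 7.73% of all. GGGCGG, the GC box read by SP1-type factors, was in 33 members (68.8%) and in 71.7% of tested genes. The longer palindrome read by NRF1 was in 4 members (8.33%) and in 2.12% of tested genes, and TATAAA was in 2 members (4.17%) and 8.80% of tested genes. All 5 patterns were read on both strands, and none contains another. These are counts of letters in a window, and the 18 members with an ETS-type match had a median log2 ratio of 0.04 between gRNA2+dox and gRNA2 while the 30 without had 0.06.

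The members lie on 19 chromosomes, with 9 on chromosome 2. A feature that the choice of members did not use is that 7 of the 56 (12.5%) carry annotated small nucleolar RNA genes within their span, namely WDR43, NOP58, NCL, GNL3, TSR1, NOP56 and DKC1, against 1.88% of 13940 tested genes with a position. Such guide RNAs are cut from introns of their hosts and work in the snoRNPs that other members build. NOP56 and GNL3 each span 5 of them.

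Levels were compared between members only per length of the canonical transcript, in CPM per kilobase, for the 55 members with a length. NPM1, which encodes the nucleolar chaperone nucleophosmin, stood highest at a mean of 581 over the 4 libraries, followed by NOP10 at 187, FBL at 109, NHP2 at 93.8, NCL at 88.2 and GNL2 at 82.7. The median member was at 15.9, and WDR12 at 1.56 and UTP20 at 1.10 were the lowest. The order rests on 1 canonical length per gene, such as 8068 bases for WDR12 and 507 for NOP10. Which transcripts the cells use was not tested. NPM1 and NOP10 were apart in every library, but further down the order few steps were clear, since the ranges of neighbouring members over the 4 libraries overlapped for 45 of 54 neighbours. Members of 1 complex were not at 1 level per kilobase, as NOP10 and NHP2 stood at ranks 2 and 4 and their partner DKC1 at rank 15.

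Across the 4 libraries the members varied little. The difference between a member's highest and lowest library had a median of 0.23 on the log2 scale, against 0.31 for all tested genes and 0.25 for genes with at least 100 counts in a library, and it was under 0.5 for 55 of the 56 members (98.2%) against 88.9% of the genes with at least 100 counts. TSR1, a factor of late 40S maturation, had the smallest difference, with 42.5 CPM without and 43.4 with doxycycline in CTL cells, and 43.2 and 42.6 in gRNA2 cells. The TSR1 count leaves out reads that also fall on an overlapping gene (the counts of both strands summed to 1.602 times it), so its small difference is uncertain. RRP12, which acts in export of precursor subunits from the nucleus, had the largest, a log2 difference of 0.62, with 27.7 CPM without and 30.6 with doxycycline in CTL cells, and 38.7 and 42.6 in gRNA2 cells. Both RRP12 libraries of the gRNA2 cells thus lay above both libraries of the CTL cells.

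Summed over the 56 members, the counts made up 0.383% and 0.380% of all counts in CTL cells without and with the drug, and 0.392% and 0.399% in gRNA2 cells. In summed CPM these are 3779, 3797, 3924 and 4052, so that the knockout library held the most and the log2 ratio of the sums was 0.05 against gRNA2 and 0.09 against CTL+dox. In bulk RNA a change in the share of cells that express a gene and a change per cell cannot be told apart. The level was highest in gRNA2+dox for 29 of 56 members (51.8%), against a background of 24.8% of all tested genes, and lowest there for 4 members, against 25.7%. CTL and CTL+dox each held the lowest level of 22 members, where the background is 20.2% for CTL and 29.3% for CTL+dox, and gRNA2 held that of 8, against 24.7%. Each of these other libraries held the highest level of 9 members, where the background is 21.2% for CTL, 29.6% for CTL+dox and 24.4% for gRNA2.

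The knockout was first compared with the same cells without doxycycline, gRNA2+dox against gRNA2. The median log2 ratio of the members was 0.04, with 40 above 0 and 16 below, whereas 50.4% of all tested genes were below 0 and their median was -0.00. A gene was called higher or lower where its log2 ratio was at least 0.25 in size and the 95% interval lay on 1 side of 0. By this rule 1 member was lower (1.79%, background 6.31% of tested genes) and 4 were higher (7.14%, background 5.91%), so the number called was near or below the background in both directions. Every member was within 0.5 of 0, the lowest being NOP14 at -0.25 and the highest PNO1 at 0.38. With the interval alone and no limit of size, 17 members lay above 0 (background 15.8%) and 3 below (background 14.9%), and such intervals narrow with the count, which was at least 111 for every member.

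The second comparison set the knockout against the control guide with the drug in both, gRNA2+dox against CTL+dox. Here the median of the members was 0.10 with 43 above 0 and 13 below, while 50.1% of all tested genes were below 0. No member was called lower (background 11.1%) and 9 were called higher (16.1%, background 10.3%), the lowest being EMG1 at -0.25 and the highest RRP12 at 0.48. Among genes with at least 100 counts in a library, 11.4% were called lower and 11.9% higher. Both comparisons share the gRNA2+dox library, so they are not independent. Called in the same direction in both were 0 members as lower (background 2.8%) and 1 as higher (background 2.06%), which was UTP6. With the interval alone, 23 members lay above 0 (41.1%, background 20.6%) and 3 below (5.36%, background 19.6%). The background again holds genes with fewer counts and so wider intervals, and the part of this in the gap was not tested.

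No member passed limits modelled on those the study set for lower genes, a log2 ratio past 1 with a 1% bound past 0.5, in any of the 4 comparisons. The bound was computed from counting error in place of GFOLD, which was not run, and the limits were also applied to higher genes. The background of genes that passed as lower and higher was 0.27% and 0.316% against gRNA2 and 1.03% and 0.487% against CTL+dox. It was 0.184% and 0.0855% with the drug in CTL cells and 0.447% and 0.145% between the pools without drug.

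The remaining pairs compare libraries that are labelled wild type. In CTL cells the log2 ratio of TCOF1 with to without the drug was -0.59 (-0.73 to -0.45), so the first of them is not a pair with equal TCOF1, and drug and culture cannot be told apart in it. CTL+dox against CTL, the drug with the control guide, had a median of 0.00 with 28 members on each side of 0 (background below 0 49.8%), and 1 member was called lower (background 6.54%) and 2 higher (background 4.86%). By the interval alone 11 lay above 0 (19.6%, background 14.8%) and 9 below (16.1%, background 15.6%). gRNA2 against CTL, the cell pools without drug, had a median of 0.05 with 37 members above 0 and 19 below (background below 0 50.8%), and 1 was called lower (background 7.39%) and 3 higher (background 5.19%). By the interval alone 16 lay above 0 (28.6%, background 15.7%) and 2 below (3.57%, background 15.1%), with the same limit of unlike counts. The median difference between the pools without the drug was therefore as large as that between gRNA2+dox and gRNA2. The members spanned -0.27 to 0.37 with the drug in CTL cells and -0.39 to 0.48 between the pools, a width like that of the knockout comparisons.

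**Figure D1:**
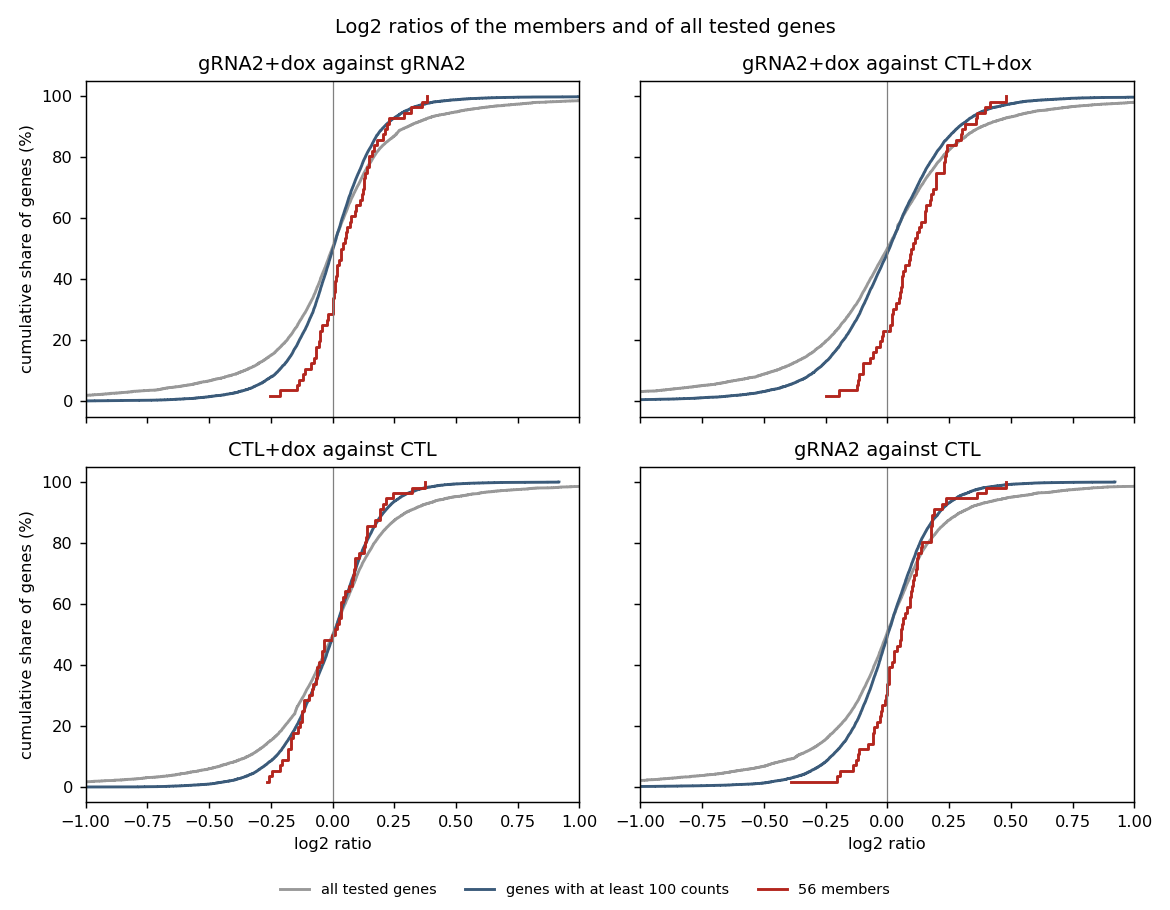
Cumulative share of genes (%) by log2 ratio in 4 comparisons, for the 56 members (red), all tested genes (grey) and genes with at least 100 counts in a library (blue). The red line lies to the right of the others with gRNA2+dox against CTL+dox, where its median is 0.10, and runs along them with CTL+dox against CTL, where its median is 0.00.

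The box C/D snoRNP places methyl groups on rRNA, and FBL is its methyltransferase while NOP56 and NOP58 form its scaffold. FBL had 116 CPM without and 124 with doxycycline in CTL cells, and 121 and 129 in gRNA2 cells. In the same order, which holds wherever 4 values follow each other here, NOP56 had 93.8, 81.0, 81.4 and 84.5 CPM, and NOP58 had 78.6, 66.4, 78.1 and 78.4. For NOP56 the CTL library was above the other three, and for NOP58 only CTL+dox stood low. Against gRNA2 all 3 were slightly above 0, from 0.01 for NOP58 to 0.10 for FBL, and none of the 3 was called. Against CTL+dox the log2 ratio was 0.06 for FBL, 0.06 for NOP56 and 0.24 for NOP58 (interval 0.14 to 0.34). From the reads of each strand alone the NOP58 ratio was 0.02 and 0.44, both outside that interval, so its size is uncertain.

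The box H/ACA snoRNP converts uridines to pseudouridine, with DKC1 (dyskerin) as the enzyme and NHP2, NOP10 and GAR1 as its core partners. DKC1 had 78.2 CPM without and 86.0 with doxycycline in CTL cells, and 81.2 and 80.2 in gRNA2 cells. NHP2 had 66.9, 70.9, 71.8 and 83.1 CPM, and NOP10, in counts, had 1780, 2161, 2619 and 2074. GAR1 was at 26.1, 24.0, 26.0 and 26.7. NHP2 was thus highest in the knockout library, with log2 ratios of 0.21 (0.12 to 0.31) against gRNA2 and 0.23 (0.13 to 0.33) against CTL+dox, while NOP10 was the lowest of the 4 against gRNA2 at -0.07. None of the 4 was called in any comparison, and their summed log2 ratio was 0.03 against gRNA2 and 0.04 against CTL+dox.

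NCL (nucleolin), NPM1 and DDX21 are abundant nucleolar RNA-binding proteins, DDX21 being an RNA helicase, and they had the most counts of all members. NPM1 had 14760, 18065, 20058 and 16841 counts, or 729, 803, 762 and 771 CPM. NCL had 365, 337, 355 and 327 CPM. DDX21 had 212, 203, 221 and 225 CPM. NCL was lowest in the knockout library and DDX21 highest, each by a small step, and NPM1 stood between the others. NPM1 has near-identical processed copies in the genome, so its count, which leaves out reads that map to several places, is uncertain. The intervals were narrow, for counting error only, while the share of reads mapping to several places was 3.39% in gRNA2+dox and 4.57% in gRNA2. Against gRNA2 the log2 ratio was -0.12 (-0.16 to -0.07) for NCL, 0.02 (-0.01 to 0.05) for NPM1 and 0.03 (-0.03 to 0.08) for DDX21. As a sum these 3 were at -0.02 (-0.04 to 0.01) against gRNA2 and -0.02 (-0.04 to 0.00) against CTL+dox, both intervals covering 0, and their median against gRNA2 was 0.02.

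The small subunit processome, with 19 members, is the large particle that assembles on the leading portion of the precursor RNA. Against gRNA2 its median was 0.03 with 13 members above 0, 1 called lower (background 6.31%) and 1 higher (background 5.91%), and against CTL+dox it was 0.13 with 17 above 0, none called lower (background 11.1%) and 3 higher (background 10.3%). UTP6, a subunit of the UTP-B module of the particle, encoded on chromosome 17 from 31860904 to 31901708, had 790 counts without and 905 with doxycycline in CTL cells, and 1099 and 1171 in gRNA2 cells, or 39.0, 40.2, 41.7 and 53.6 CPM. The knockout library stood above the other three, which lay close together. The log2 ratio was 0.36 (0.24 to 0.48) against gRNA2 and 0.41 (0.29 to 0.54) against CTL+dox. It kept its sign from the reads of either strand alone, with 0.48 and 0.25 against gRNA2 and 0.46 and 0.37 against CTL+dox.

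NOP14, which binds the early 40S precursor, was the 1 member called lower against gRNA2. It had 312 counts without and 306 with doxycycline in CTL cells, and 433 and 301 in gRNA2 cells, or 15.4, 13.6, 16.4 and 13.8 CPM, so that the knockout library lay with CTL+dox and not below it. The log2 ratio was -0.25 (-0.47 to -0.04) against gRNA2 and 0.02 (-0.21 to 0.25) against CTL+dox. Part of its reads also fall on an overlapping gene, since the counts of both strands summed to 1.37 times the unstranded count, which leaves such reads out, and its value is uncertain for that reason. HEATR1 (1.72 times) and TSR1 (1.602 times) were the members with more reads set aside in this way.

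MPHOSPH10, IMP3 and IMP4 form a subcomplex that holds the U3 snoRNA on the precursor. MPHOSPH10 had 30.5 CPM without and 25.3 with doxycycline in CTL cells, and 32.9 and 29.8 in gRNA2 cells. IMP3 had 29.2, 29.9, 28.7 and 31.0 CPM, and IMP4 had 40.03, 42.3, 44.1 and 44.2. MPHOSPH10 was the member called lower with the drug in CTL cells, at -0.27 (-0.43 to -0.10), and its log2 ratio was -0.14 (-0.29 to 0.00) in gRNA2 cells. The partners IMP3 and IMP4 were at 0.11 and 0.00 against gRNA2, and neither was called anywhere.

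NOC4L, a partner of NOP14, had 21.3 CPM without and 21.3 with doxycycline in CTL cells, and 27.4 and 28.0 in gRNA2 cells. Both gRNA2 libraries were above both CTL libraries, so the log2 ratio was 0.36 (0.19 to 0.54) between the pools without drug, 0.40 (0.22 to 0.57) against CTL+dox and 0.03 (-0.12 to 0.19) against gRNA2. UTP20, a large scaffold of the particle and among the members with the fewest counts, had 166, 231, 285 and 228 counts, or 8.20, 10.3, 10.8 and 10.4 CPM. For UTP20 the CTL library alone was low, and it was called higher both with the drug in CTL cells, at 0.32 (0.03 to 0.62), and between the pools, at 0.40 (0.12 to 0.68). WDR43, a subunit of the same particle, had 72.2, 74.0, 78.8 and 91.0 CPM and was called higher against CTL+dox at 0.30 (0.20 to 0.39). The WDR43 ratio from the reads of each strand alone was 0.09 and 0.49 against CTL+dox, both outside that interval. The first is below the limit of size for a call, so both the call and the size of the ratio are uncertain.

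The 8 members of late 40S assembly and export act on the precursor as it leaves the nucleolus and matures in the cytoplasm. Their median was 0.10 against gRNA2 with 5 above 0 and 2 called higher (background 5.91%), and 0.10 against CTL+dox with 6 above 0 and 1 called higher (background 10.3%). None was called lower in either (background 6.31% and 11.1%). PNO1, which binds the 3′ end region of the 40S rRNA precursor together with the nuclease NOB1 and is encoded on chromosome 2 from 68157888 to 68176238, had 39.7 CPM without and 46.2 with doxycycline in CTL cells, and 36.6 and 47.7 in gRNA2 cells. Both libraries with doxycycline stood above both without, and the log2 ratio was 0.38 (0.26 to 0.51) against gRNA2, 0.22 (0.08 to 0.35) with the drug in CTL cells and 0.05 (-0.08 to 0.17) against CTL+dox.

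BYSL (bystin), an early binder that stays on the 40S precursor through export, had 475 counts without and 470 with doxycycline in CTL cells, and 471 and 487 in gRNA2 cells, or 23.5, 20.9, 17.9 and 22.3 CPM. The gRNA2 library was the low one, so BYSL was called lower between the pools at -0.39 (-0.58 to -0.21) and higher against gRNA2 at 0.32 (0.13 to 0.50), and it was at 0.09 (-0.09 to 0.28) against CTL+dox. RRP12, described above by its 4 values, was at 0.48 (0.33 to 0.63) between the pools, 0.48 (0.34 to 0.62) against CTL+dox and 0.14 (0.01 to 0.27) against gRNA2. LTV1, an export and maturation factor, had 23.7, 21.1, 26.1 and 24.1 CPM and was the lowest of the 8 against gRNA2 at -0.11 (-0.28 to 0.06).

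The 19 members of 60S assembly process the large subunit precursor. Against gRNA2 their median was 0.08 with 15 above 0 and 1 called higher (background 5.91%), and against CTL+dox it was 0.10 with 14 above 0 and 5 called higher (background 10.3%). None was called lower in either (background 6.31% and 11.1%). Summed, they had the largest log2 ratio of the 6 roles against CTL+dox, 0.18 (0.16 to 0.21), next to 0.18 (0.14 to 0.21) for the small subunit processome, and the intervals overlapped. The 5 members called were PES1, GNL2, EBNA1BP2, RRP1 and NOP2, of which GNL2 and EBNA1BP2 are named after their values were seen, with log2 ratios from 0.28 to 0.36.

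PES1, BOP1 and WDR12 form the PeBoW complex, which is needed to process the precursor of the 60S rRNAs. PES1 had 98.8 CPM without and 103 with doxycycline in CTL cells, and 115 and 129 in gRNA2 cells. BOP1 had 20.8, 21.2, 19.2 and 18.5 CPM, and WDR12 had 12.5, 13.3, 12.3 and 12.3. The 3 subunits did not share a direction: PES1 was above 0 against gRNA2 at 0.16 (0.09 to 0.24) and CTL+dox at 0.32 (0.24 to 0.40), BOP1 was at -0.06 (-0.25 to 0.14) and -0.20 (-0.39 to -0.00), and WDR12 at 0.00 (-0.24 to 0.24) and -0.11 (-0.36 to 0.13).

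DDX18, an RNA helicase of 60S assembly, had 50.1 CPM without and 57.3 with doxycycline in CTL cells, and 50.4 and 61.6 in gRNA2 cells. As for PNO1, both libraries with the drug were above both without, and the log2 ratio was 0.29 (0.18 to 0.40) against gRNA2, 0.19 (0.07 to 0.31) with the drug in CTL cells and 0.10 (-0.01 to 0.22) against CTL+dox. RRS1, a factor that brings the 5S RNA particle to the precursor, had the fewest counts of all members, 129, 120, 147 and 111, and it was the lowest of the role against gRNA2 at -0.13 (-0.50 to 0.23). A difference of the size seen for most members was not detectable for RRS1 at this depth. NOC3L, a 60S assembly factor with 159, 229, 219 and 204 counts, or 7.86, 10.2, 8.32 and 9.34 CPM, was called higher with the drug in CTL cells at 0.37 (0.08 to 0.67) and was not called in the other comparisons.

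The response to doxycycline was then compared between the cells, as the log2 ratio in gRNA2 cells minus that in CTL cells. The median difference was 0.07 with 34 members above 0 and 22 below (background below 0 49.2%). None was called lower (background 7.06%) and 5 were called higher (8.93%, background 7.64%), a number near the background. The interval alone lay above 0 for 13 members (23.2%, background 14.3%) and below 0 for 3 (5.36%, background 12.4%), with the same limit of unlike counts. BYSL had the largest difference, 0.49 (0.23 to 0.75), from 0.32 in gRNA2 cells and -0.17 in CTL cells. From the reads of each strand alone the BYSL difference was 0.20 and 0.74, and its ratio in CTL cells was 0.03 and -0.35. From the first strand NOP2 lay above BYSL at 0.47, so the rank of BYSL depends on the strand. NOP2, an rRNA methyltransferase of the 60S precursor with 31.0 CPM without and 28.3 with doxycycline in CTL cells, and 31.0 and 36.2 in gRNA2 cells, had a difference of 0.36 (0.15 to 0.57). UTP6 followed at 0.32 (0.14 to 0.50).

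RRP1, which acts on the 60S precursor, had 44.03 CPM without and 38.9 with doxycycline in CTL cells, and 45.7 and 49.97 in gRNA2 cells. Its difference was 0.31 (0.13 to 0.49), with CTL+dox low and gRNA2+dox high. NOP56, whose 4 values are given above, had a difference of 0.27 (0.14 to 0.39). In each of these 5 members except UTP6 the ratio in CTL cells was below 0, between -0.13 for NOP2 and -0.21 for NOP56. The 5 lowest differences were those of UTP20 at -0.37 (-0.76 to 0.01), NOC3L at -0.21 (-0.61 to 0.20), HEATR1 at -0.20 (-0.43 to 0.04), NOP10 at -0.19 (-0.32 to -0.07) and EMG1 at -0.19 (-0.55 to 0.16), and of these only that of NOP10 had an interval off 0. HEATR1, a large scaffold of the processome, had 23.4, 27.7, 26.4 and 27.3 CPM and EMG1, an rRNA methyltransferase of the 40S precursor, had 11.1, 12.7, 10.7 and 10.7 CPM.

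**Figure D2:**
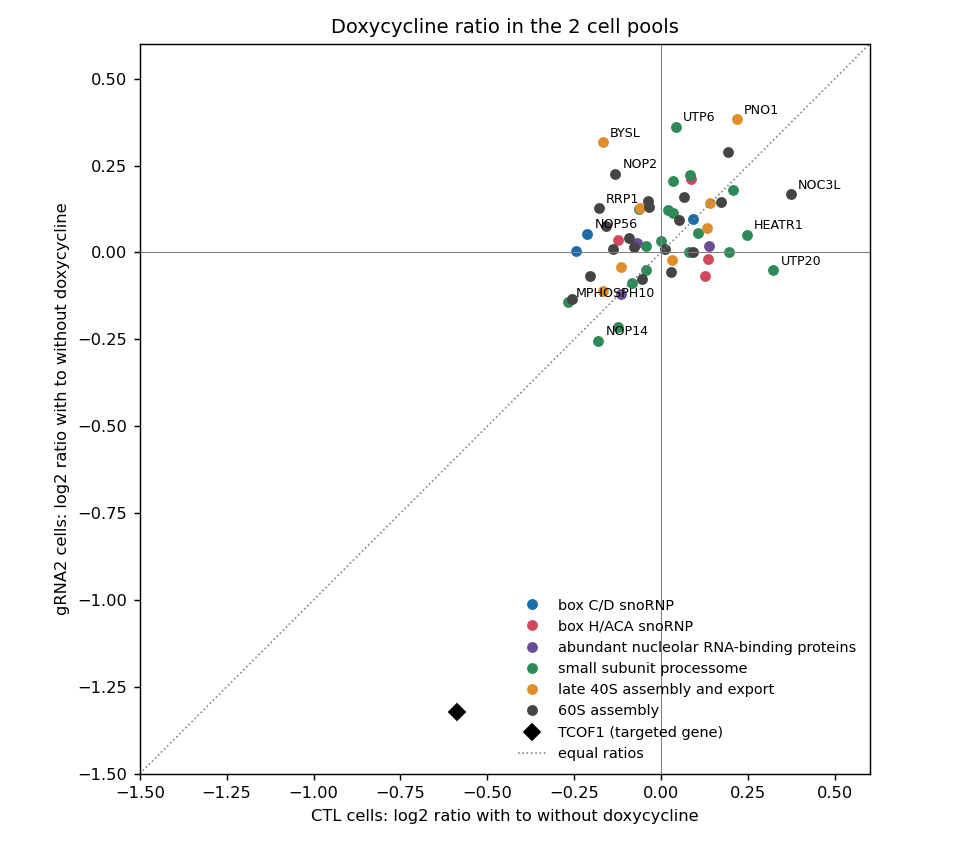
Log2 ratio with to without doxycycline for each member in CTL cells (horizontal axis) and gRNA2 cells (vertical axis), coloured by role, with the dotted line at equal ratios. TCOF1 (diamond) lies at -0.59 and -1.32, and the members crowd around 0 on both axes, with BYSL farthest above the line by 0.49 and UTP20 farthest below it by -0.37.

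The tables also hold the reads of each strand, which are parts of like size in an unstranded library. For most members they sum to about the unstranded count, but for HEATR1, TSR1, NOP14 and, to a lesser degree, a few others they also hold the reads set aside for overlap, and HEATR1 was at -0.07 and -0.04 by strand against gRNA2 and 0.05 unstranded. The median log2 ratio was 0.02 and 0.09 for the 2 strands against gRNA2, and 0.09 and 0.12 against CTL+dox. The sign was the same in both strands for 32 of 56 members against gRNA2 and for 48 of 56 against CTL+dox. For the drug in CTL cells it was 38, for the pools 30 and for the difference of the drug ratios 28 of 56. RRS1, the member with the fewest counts, had the widest gap against CTL+dox, 0.83 between the strands, and NOC3L had the widest against gRNA2, 0.54.

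**Figure D3:**
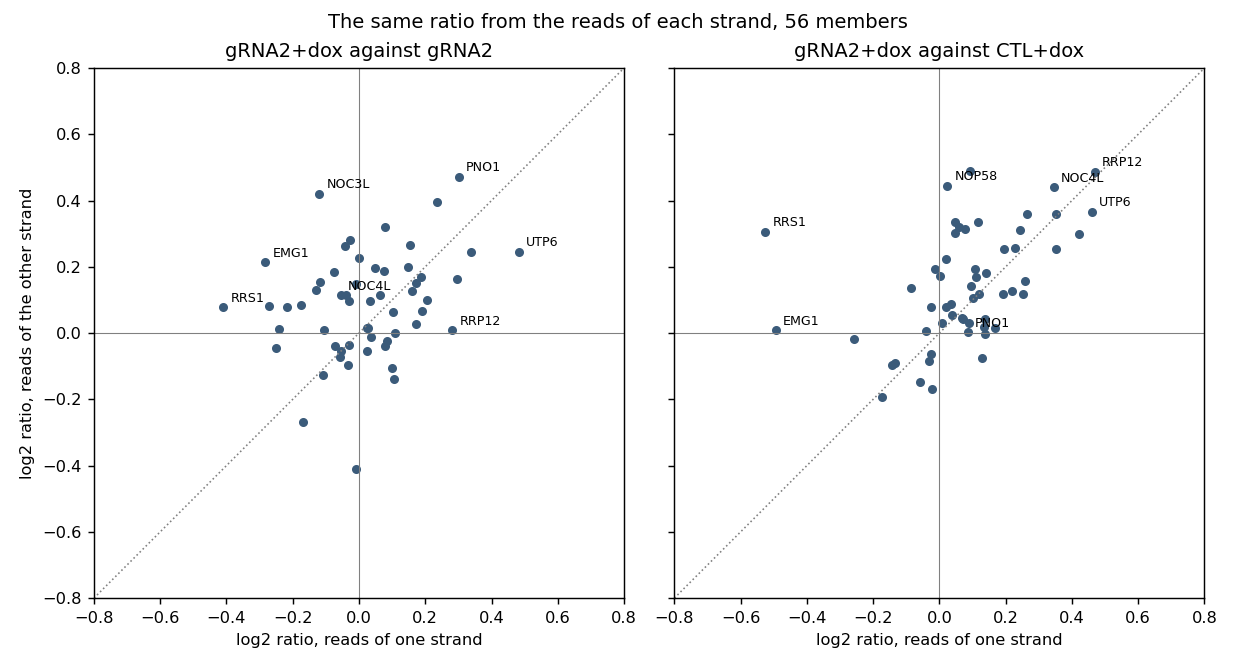
Log2 ratio from the reads of one strand (horizontal axis) and of the other (vertical axis), 1 point for each of 56 members, with the dotted line at equal values. Against CTL+dox (right) most points lie in the upper right, above 0 on both axes, including RRP12 at 0.47 and 0.49, while against gRNA2 (left) 32 of 56 have the same sign in both.

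The other genes of the pathway were taken as lists by function, to be read against the same background of 6.31% called lower and 5.91% higher against gRNA2, and 11.1% lower and 10.3% higher against CTL+dox. Of 26 further small subunit factors tested, 19 were above 0 against gRNA2, with 1 called lower and 2 higher, and 16 were above 0 against CTL+dox, with 1 called lower and 7 higher. Of 39 further large subunit factors, 23 were above 0 against gRNA2 with 0 called lower and 2 higher, and 24 against CTL+dox with 4 called lower and 8 higher. Their medians, 0.07 and 0.04 against gRNA2 and 0.07 and 0.05 against CTL+dox, lay near those of the members. The RNA exosome, which trims precursor ends, had medians of 0.09 and 0.06 over 14 genes. The 14 tested genes of RNA polymerase I and its factors had medians of 0.06 and 0.02, and their summed log2 ratio was 0.03 (-0.02 to 0.07) against gRNA2 and -0.02 (-0.06 to 0.02) against CTL+dox.

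The 79 cytosolic ribosomal protein genes, whose products the members assemble and whose counts are likewise uncertain because of near-identical copies, did not run with them in the second comparison. Their median was 0.03 against gRNA2 with 2 called lower and 1 higher, and -0.16 against CTL+dox with 74 below 0, 21 called lower (background 11.1%) and none higher (background 10.3%). The summed log2 ratio was -0.00 and -0.14 for them and 0.05 and 0.09 for the 56 members. With the drug in CTL cells the ribosomal protein genes were above 0 for 71 of 79 genes, with a summed ratio of 0.10, where that of the members was 0.01. The CTL+dox library enters both of these values. Between the pools without drug, where it does not enter, 59 of the 79 were below 0 with a median of -0.09 and a summed ratio of -0.04, and the summed ratio of the members was 0.05. NOLC1, the nucleolar partner of TCOF1 in rRNA modification, had 95.4 CPM without and 81.3 with doxycycline in CTL cells, and 99.8 and 100.1 in gRNA2 cells, with CTL+dox alone low. MYC, a known activator of ribosome biogenesis genes, had 46.6, 45.2, 52.5 and 52.5 CPM, so both gRNA2 libraries were above both CTL libraries and the log2 ratio was -0.00 (-0.12 to 0.11) against gRNA2 and 0.22 (0.09 to 0.34) against CTL+dox. MYCN, a less abundant relative, had 9.34, 11.1, 8.62 and 7.24 CPM and lay the other way, at -0.25 (-0.55 to 0.05) against gRNA2 and -0.61 (-0.91 to -0.32) against CTL+dox.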

How the data were processed

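The deposited tables hold raw read counts per gene symbol, 1 library for each of 4 conditions, which the authors obtained with STAR in its gene quantification setting after fastp had removed adaptors. The submitters' processing notes name hg38 and STAR, and the annotation is not given in the sources used here. Reads that map to several places or fall on overlapping genes are not counted by STAR, so genes with near-identical copies or an overlapping neighbour lose reads. The unstranded column was used, because reads of the first strand were 49.0% to 49.1% of the stranded counts. The 4 leading lines, sums of reads not assigned to a gene, stayed out of the totals. Unmapped reads were 2.25% to 2.49%, multimapping reads 3.39% to 4.85%, reads outside genes 10.6% to 12.5% and ambiguous reads 2.09% to 2.17% of each library.

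Counts were scaled with edgeR 4.0.16 (TMM) in R 4.3.3, with a prior count of 0.5, over the 15204 genes that reached 10 counts in 1 or more libraries, and members were read from that table. Exact 95% Clopper-Pearson intervals of the ratio of counts, and a normal approximation of the counting error for the difference of ratios, came from scipy 1.17.1 and numpy 2.4.6 in Python 3.11.15. They were tested on data simulated with Poisson counting error. That is the error they assume, so the test does not show how they hold in real libraries. The intervals cover counting error only. Since no condition was replicated, p-values are not given. Total counts of 19960644 to 26322847 per library put a floor of 3 counts at 0.11 to 0.15 CPM.

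The members and lists were chosen with earlier results of these data known. Genes named are the lowest and highest member of each role, those called in the comparisons without knockout or in both knockout comparisons, the 5 lowest and 5 highest differences of the drug ratios, the 3 members with most and with fewest counts, and the subunits of 4 complexes, with TCOF1, NOLC1 and MYC. WDR43, EBNA1BP2, GNL2, TSR1, MYCN and the snoRNA hosts were named after their values were seen. The alternatives tried were total counts, size factors of DESeq2 1.42.0, no filter, at least 50 counts, a prior count of 5, each strand's column, thinning to the smallest total, centring on genes of like level, a limit of 0.5, and the interval alone. Positions and promoters are RefSeq's on GRCh38.p14, and transcript lengths are those of GENCODE 44 canonical transcripts lifted to GRCh37.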

Additional observations from a re-analysis of the deposited data

Results flagged for a closer look

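RRP1 was flagged because the doxycycline ratio had opposite signs in the 2 cell pools with both intervals off 0. The log2 ratio was 0.13 (0.01 to 0.25) in gRNA2 cells and -0.18 (-0.32 to -0.04) in CTL cells, a difference of 0.31. The lower bound in gRNA2 cells, 0.0086, lies close to 0. With total counts the median of the members in gRNA2 cells moved from 0.0391 to 0.0166, and with no filter to 0.0229. Such scaling moves all members of a comparison alike, here by more than 0.0086, so the RRP1 interval covers 0 under both settings. RRP1 was the only member of this kind (1.79% of 56), a share below the 3.35% of all tested genes. The difference was not tested across replicates, since each condition had 1 library.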

How the results depend on the processing

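No paired analysis was possible because a single library stood for each group, and for the same reason none was left out in turn. Of the values of named members under the alternatives, 37 moved by more than their counting interval and 1358 did not, and no called value changed sign. No scaling moved the median of all tested genes by more than 0.1.

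Against gRNA2, the members called lower numbered 1 as reported, 2 from one strand's column, 0 with a limit of 0.5 and 3 by the interval alone, and those called higher numbered 4, and 7 from the other strand's column, 0 with the limit of 0.5 and 17 by the interval alone. Their median was 0.04, and 0.0908 from the other strand's column, 0.02 with total counts, 0.02 with no filter and 0.02 from the first strand's column. Against CTL+dox, the members called lower numbered 0, and 1 with total counts, 1 from one strand's column and 3 by the interval alone, and those called higher numbered 9, and 16 from the other strand's column, 0 with the limit of 0.5 and 23 by the interval alone.

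For the drug in CTL cells the median was 0.00, and -0.0394 from the other strand's column and -0.01 with total counts or with centring, so its sign depends on the setting. The members called lower numbered 1, and 2 with total counts, 5 from the other strand's column, 2 after thinning, 0 with the limit of 0.5 and 9 by the interval alone, and those called higher numbered 2, 0 with that limit and 11 by the interval alone. Between the pools without drug the median was 0.05 and 0.0832 with no filter. There the members called higher numbered 3, and 5 and 6 from the 2 strand columns, 0 with the limit of 0.5 and 16 by the interval alone, and those called lower numbered 1, and 3 from the other strand's column, 0 with the limit and 2 by the interval alone.

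For the difference of the drug ratios the median was 0.07 and 0.117 from the other strand's column. The members called lower numbered 0, and 1 with no filter, 2 and 1 from the 2 strand columns, 1 after thinning and 3 by the interval alone, and those called higher numbered 5, and 3 and 9 from the strand columns, 0 with the limit of 0.5 and 13 by the interval alone. A strand column holds only part of the reads, so fewer counts enter there. The cause of the other moves was not tested. Depth limits the members with fewest counts, RRS1, NOC3L and UTP20.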
